A study of Homo sapiens with 2 samples.

Results

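The 10 genes described here encode human chaperones of the HSP70 and HSP90 families and were taken from the deposited gene table by symbol. They are 10 of 27685 genes listed. By where their proteins work, 6 are cytosolic (HSPA8, HSPA1A, HSPA1B, HSPA4, HSP90AA1 and HSP90AB1), 3 belong to the endoplasmic reticulum (HSPA5, HSPA13 and HSP90B1) and 1 is mitochondrial (HSPA9). The samples were NCI-H838, a long-established cell line from a human lung adenocarcinoma, collected 48 hours after transient transfection with Lipofectamine 2000. The group called LINC00472 received pCDH-LINC00472, a plasmid with the full-length long noncoding RNA, and the control group received the empty pCDH vector. Each group was 1 library of total RNA, so no value below has a replicate check, intervals cover counting error only, and an effect of the insert cannot be told apart from a difference between 2 cultures or 2 libraries.

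HSP70 proteins bind short hydrophobic stretches of unfolded polypeptides and release them in a cycle driven by ATP, with J proteins to start the cycle and nucleotide exchange factors to end it. HSP90 proteins act later, on nearly folded clients such as kinases and steroid receptors, with the help of co-chaperones. Each compartment has its own set: in the cytosol many of the genes answer to the heat shock factor HSF1, whereas in the reticulum they answer to the unfolded protein response, through ATF6 and XBP1.

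The 2 libraries held 21093055 (LINC00472) and 54823706 (control) gene counts. LINC00472 had 5655 counts in the library labelled with it and 2563 in the control (log2 ratio of scaled counts 2.23). Of the epithelial markers, KRT8 and KRT18 had 94.2 and 157 FPKM in the control and were lower with the LINC00472 plasmid, at 26.5 and 23.9 FPKM (log2 ratios -1.98 and -2.90). Their part in the members' ratios was not tested. EPCAM (-0.19) and CDH1 (0.47) did not meet the rule used below, and KRT19 had 0 counts against 44. Of the 3 lung adenocarcinoma markers, NKX2-1 and SFTPB had 0 counts in both libraries. NAPSA had 88 counts with the LINC00472 plasmid and 66 in the control, and was higher by that rule (log2 ratio 1.49, interval 1.03 to 1.99). The leukocyte genes CD3E, PTPRC and CD68 had 0, 0 and 432 counts against 0, 32 and 1498. The endothelial genes PECAM1, CDH5 and VWF had 0, 0 and 35 against 6, 9 and 48, and the fibroblast genes DCN, COL1A1 and COL1A2 had 0, 237 and 15 against 28, 458 and 68. COL1A2 was lower by the same rule (log2 ratio -1.08), with a mean level just above the minimum, and CD68, VWF and COL1A1 did not meet it.

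The DNA before the gene starts is shown here because many cytosolic and reticulum chaperone genes are known to be regulated by different elements. Whether such elements have a part in the members' ratios was not tested. The sequences are RefSeq windows on GRCh38.p14, another build than that of the deposited data, and all 10 members were matched, with 13 annotated starts. Each window of 300 bases (250 before and 50 after a start) was searched on both strands for the heat shock element, taken as GAANNTTC and, after 2 free bases, GAA, which HSF1 binds. The reticulum stress element, bound by NF-Y and ATF6, was taken as CCAAT and CCACG with 9 free bases between them. Capitals mark matches of these and of GAANNTTC alone, which is part of every heat shock element, in the 250 bases that end at the base before the start.
HSPA8 (chr11:123062137-123062386, minus strand): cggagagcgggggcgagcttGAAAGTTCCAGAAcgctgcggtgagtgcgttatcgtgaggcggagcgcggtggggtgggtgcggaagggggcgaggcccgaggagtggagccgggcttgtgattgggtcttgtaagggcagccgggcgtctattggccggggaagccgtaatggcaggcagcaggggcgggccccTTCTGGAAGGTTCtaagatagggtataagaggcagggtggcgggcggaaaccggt
HSP90AA1, downstream start (chr14:102087045-102087294, minus strand): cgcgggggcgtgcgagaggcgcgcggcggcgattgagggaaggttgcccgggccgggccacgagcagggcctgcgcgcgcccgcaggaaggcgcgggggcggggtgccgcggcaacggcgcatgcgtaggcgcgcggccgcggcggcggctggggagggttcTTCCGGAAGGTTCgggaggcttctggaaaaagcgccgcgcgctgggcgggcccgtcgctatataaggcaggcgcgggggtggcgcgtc
HSPA1A (chr6:31815293-31815542, plus strand): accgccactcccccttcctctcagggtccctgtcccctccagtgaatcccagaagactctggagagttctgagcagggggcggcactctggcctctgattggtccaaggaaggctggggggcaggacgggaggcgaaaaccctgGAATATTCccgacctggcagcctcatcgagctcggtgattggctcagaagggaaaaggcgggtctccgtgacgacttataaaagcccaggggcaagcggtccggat
HSPA5 (chr9:125241344-125241593, minus strand): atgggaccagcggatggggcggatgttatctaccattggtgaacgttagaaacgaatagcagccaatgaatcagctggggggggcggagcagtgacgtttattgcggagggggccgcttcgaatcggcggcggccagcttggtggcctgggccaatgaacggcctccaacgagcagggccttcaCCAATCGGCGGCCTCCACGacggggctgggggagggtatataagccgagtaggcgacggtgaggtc
HSP90B1 (chr12:103930160-103930409, plus strand): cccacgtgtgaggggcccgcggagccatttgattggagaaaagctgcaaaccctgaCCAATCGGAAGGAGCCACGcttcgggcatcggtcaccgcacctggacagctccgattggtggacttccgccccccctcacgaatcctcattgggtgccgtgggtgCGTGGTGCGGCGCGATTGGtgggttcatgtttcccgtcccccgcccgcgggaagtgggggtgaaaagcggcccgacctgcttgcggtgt

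The heat shock element stood before 3 of the 13 member starts, all of cytosolic genes, and in 0.490% of all 35116 windows. HSPA8 had 2 matches, which began 230 and 55 bases before its start. HSP90AA1 had 1, 88 bases before the downstream of its 2 starts. HSP90AB1 had 2, 165 and 112 bases before the last of its 3 starts. HSPA1A and HSPA1B held the shorter GAANNTTC 106 and 105 bases before their starts, a motif found in 6.77% of windows, and also a TATAAA box (11.5% of windows). Only exact letters were searched, so an imperfect heat shock element in these 2 windows would be missed. Read in the direction of the motif, with the fixed letters in capitals, the matches of the heat shock element are these.
HSPA8, upstream match: GAAagTTCcaGAA
HSPA8, match near the start: GAAccTTCcaGAA
HSP90AA1: GAAccTTCcgGAA
HSP90AB1, upstream match: GAAtcTTCcaGAA
HSP90AB1, downstream match: GAAgcTTCcaGAA

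The reticulum stress element stood before 2 of the 13 member starts and in 0.0769% of all windows. HSPA5 had 1 match, 66 bases before its start, and HSP90B1 had 2, 194 and 89 bases before its start, the second on the opposite strand. No window of HSPA4, HSPA13 or HSPA9 held any of these motifs, which says only that these letters are not in those windows.
HSPA5: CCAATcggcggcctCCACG
HSP90B1, upstream match: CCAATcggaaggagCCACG
HSP90B1, downstream match: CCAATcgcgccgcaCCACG

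All 6 cytosolic members and the mitochondrial member were lower in the LINC00472 library, and the 3 members of the reticulum were not. In such bulk RNA, fewer cells with a transcript and less of it per cell cannot be told apart. A gene was called higher or lower when its mean level was at least 1 CPM (counts per unit of library size after TMM scaling), its ratio was at least 2-fold and the 95% counting interval of the ratio excluded equality. All 10 members reached 1 CPM, 7 were lower and 0 higher. Of all 14012 genes at that minimum, 23.8% were lower and 16.3% higher. Among the 12393 protein-coding genes the shares were 26.2% and 11.5%, and among the 2442 protein-coding genes with at least 100 CPM, where most members lie, 29.8% and 8.72%. Among the 1619 genes without a protein-coding transcript, to which no member belongs, 5.74% were lower and 53.4% higher. The median log2 ratio of LINC00472 over control was -1.91 for the cytosolic members and 0.27 for the reticulum members, against -0.31 over all protein-coding genes. Scaling by total counts or upper quartiles moved all ratios upward, the median of all genes from -0.19 to 0.11 and 0.21. TMM gave 3341 lower and 2288 higher genes, scaling by total counts 2297 and 3155, and upper quartile factors 1993 and 3531.

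**Figure D1:**
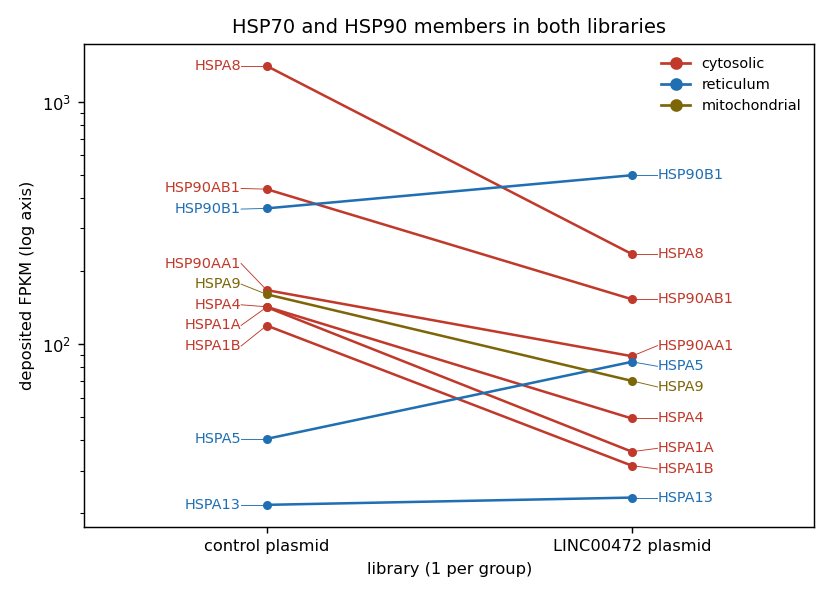
Deposited FPKM of each member on a log axis in the control library (left) and the LINC00472 library (right), 1 library per group, with lines joining the values of 1 gene. The red cytosolic lines and the gold line of HSPA9 slope down, while the blue lines of HSPA5 and HSP90B1 slope up and that of HSPA13, whose direction changes with the scaling, is nearly level: HSPA8 goes from 1403 to 234.9 FPKM and HSPA5 from 40.6 to 84.4.

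HSPA8, the constitutive cytosolic HSP70 that also uncoats clathrin vesicles, had 13539 counts with the LINC00472 plasmid and 195966 with the empty vector, or 235 and 1403 FPKM (FPKM being the authors' level scaled for transcript length and depth). Its scaled counts were 6.80-fold lower (log2 ratio -2.77, interval -2.79 to -2.74). Only 0.734% of protein-coding genes had a lower ratio. In the control it ranked 13th among protein-coding genes by FPKM and in the LINC00472 library 64th.

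HSPA1A and HSPA1B, the heat-inducible HSP70 genes of the major histocompatibility region, had nearly the same ratio. HSPA1A had 2051 against 19597 counts (35.9 against 142 FPKM) and was 4.49-fold lower (log2 ratio -2.17, interval -2.23 to -2.10). HSPA1B had 1864 against 17074 counts (31.5 against 119 FPKM) and was 4.30-fold lower (log2 ratio -2.11, interval -2.18 to -2.04). Their GENCODE transcripts were identical at 95.9% of 2396 aligned bases, so the division of reads between both is uncertain. The quotient of HSPA1B over HSPA1A counts was 0.909 with the LINC00472 plasmid and 0.871 with the empty vector, and the interval of that change (0.977-fold to 1.11-fold) included no change. By contrast, HSPA1A and HSPA8 transcripts shared 71.9% of aligned bases.

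HSPA4, an HSP110-type relative that speeds nucleotide exchange on HSP70, had 3918 against 27408 counts (49.2 against 142 FPKM). It was 3.29-fold lower (log2 ratio -1.72, interval -1.77 to -1.67). Its ratio could not be separated from that of HSP90AB1 within counting error, with a change of their quotient of 0.970-fold (interval 0.933 to 1.01). These and the HSPA1A and HSPA1B pair were the exceptions among the cytosolic members, since the other 13 of 15 pairs differed in their ratios beyond counting error.

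The HSP90 genes of the cytosol were less far below the control than HSPA8. HSP90AB1, the constitutive form, had 9697 against 65819 counts (153 against 435 FPKM) and was 3.19-fold lower (log2 ratio -1.67, interval -1.70 to -1.64). HSP90AA1, the more stress-inducible form, had 7038 against 31905 counts (89.0 against 167 FPKM) and was 2.13-fold lower (log2 ratio -1.09, interval -1.13 to -1.05). HSP90AA1 over HSP90AB1 counts stood at 0.726 with the LINC00472 plasmid and 0.485 with the empty vector, a log2 difference of 0.58 (interval 0.53 to 0.63) that no scaling affects. The call of HSP90AA1 depended on the reference: its log2 ratio was -0.80 when scaled by total counts and -0.70 by upper quartiles, short of 2-fold.

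In the reticulum, HSPA5 (BiP), the HSP70 that receives chains entering the lumen and holds the stress sensors inactive, had 7873 against 9166 counts from a library with fewer counts in all. Its FPKM was 84.4 with the LINC00472 plasmid and 40.6 with the empty vector. The ratio of scaled counts was 1.83-fold (log2 0.87, interval 0.83 to 0.91), short of the 2-fold rule. It passed the rule with total counts (log2 ratio 1.16), upper quartile factors (1.26) and deposited FPKM (1.05), and when centred on the median of all genes (1.06). By its TMM ratio HSPA5 lay above 86.3% of protein-coding genes.

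HSP90B1 (GRP94), the reticulum HSP90 that folds integrins and Toll-like receptors, had 33397 against 59023 counts (496 against 362 FPKM). Its log2 ratio was 0.27 (interval 0.25 to 0.29), a 1.20-fold ratio. It ranked 133rd among protein-coding genes by FPKM in the control and 8th in the LINC00472 library, while the ranks of the cytosolic members were lower there. HSPA13, a microsomal HSP70 relative without the peptide-binding domain, had 2176 against 4917 counts (23.2 against 21.7 FPKM). Its log2 ratio of -0.09 (interval -0.16 to -0.01) turned to 0.20 when scaled by total counts and 0.30 by upper quartiles, so it has no firm direction.

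HSPA9 (mortalin), the matrix HSP70 that pulls imported precursors across the inner membrane, had 5801 against 31959 counts (70.4 against 160 FPKM). It was 2.59-fold lower (log2 ratio -1.37, interval -1.41 to -1.33), which places it between HSP90AA1 and HSP90AB1. With upper quartile factors its log2 ratio was -0.98, just short of 2-fold.

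**Figure D2:**
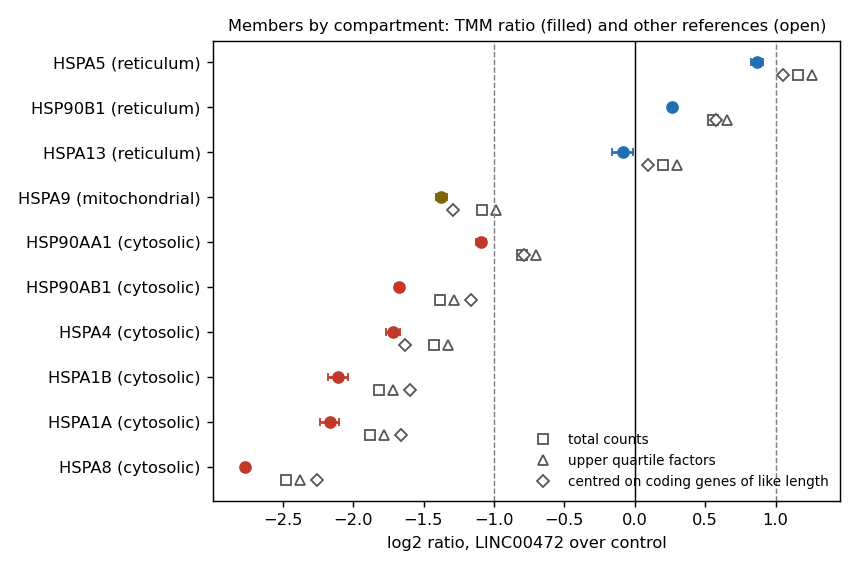
Log2 ratio of LINC00472 over control for each member, with filled points for TMM-scaled counts and bars for the 95% counting interval, which is narrower than many points. Open symbols give 3 other references, solid and dashed lines mark equality and 2-fold. Under each of the references drawn, the 3 reticulum members lie to the right of all cytosolic members and of HSPA9. Total counts and upper quartile factors shift all members alike, so only the like-length reference could change their order.

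Quotients of 2 counts within a library do not depend on scaling, and these set the reticulum members apart from the cytosolic members and HSPA9. The reticulum members together held 1.14 counts for each cytosolic count with the LINC00472 plasmid and 0.204 with the empty vector, a 5.58-fold change (interval 5.49 to 5.67). All 18 pairs of a reticulum with a cytosolic member shifted towards the reticulum, with intervals above equality, from 2.01-fold for HSPA13 over HSP90AA1 to 12.4-fold for HSPA5 over HSPA8. HSPA5 counts were 0.582 of HSPA8 counts with the LINC00472 plasmid and 0.0468 with the empty vector. Within the HSP90 family, HSP90B1 over HSP90AB1 went from 0.897 in the control to 3.44, a 3.84-fold change (interval 3.75 to 3.94). HSPA9 over the cytosolic sum changed by 1.70-fold (interval 1.65 to 1.76), and the reticulum sum over HSPA9 by 3.27-fold. HSPA8 gave 195966 of the 357769 cytosolic counts in the control and weighs most in that sum. HSPA9 was not set apart from the single cytosolic members. It changed by 2.63-fold over HSPA8 and by 0.823-fold over HSP90AA1 (interval 0.792 to 0.855). The pairs share genes and libraries and are not independent.

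**Figure D3:**
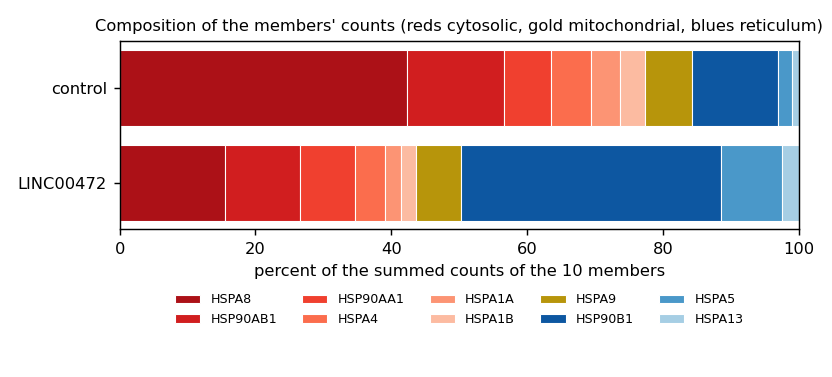
Percent of the summed counts of the 10 members held by each, in the control library (top) and the LINC00472 library (bottom), not scaled for length. The 6 cytosolic genes (reds) hold 77.3% in the control and 43.6% in the LINC00472 library, and the 3 reticulum genes (blues) 15.8% and 49.7%.

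The share of all gene counts held by the 10 members was 0.844% in the control (exact 95% interval 0.842 to 0.847) and 0.414% with the LINC00472 plasmid (0.411 to 0.417). The cytosolic members took 0.181% against 0.653%. The reticulum members went the other way with 0.206% against 0.133%. HSPA9 took 0.0275% of all gene counts with the LINC00472 plasmid against 0.0583% with the empty vector. Its part of the counts of the 10 members, whose total share also fell, changed little, with 6.64% against 6.91%. Per length, the summed FPKM of the cytosolic members was 593 against 2407, and that of the reticulum members 604 against 425. The cytosolic sum was thus 5.67 times the reticulum sum in the control and 0.982 times in the LINC00472 library.

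The order of the members by FPKM differed accordingly. In the control it ran HSPA8, HSP90AB1, HSP90B1, HSP90AA1, HSPA9, HSPA4, HSPA1A, HSPA1B, HSPA5, HSPA13, and HSPA4 and HSPA1A were the neighbours not separated by counting error (142.3 and 141.8 FPKM). In the LINC00472 library it ran HSP90B1, HSPA8, HSP90AB1, HSP90AA1, HSPA5, HSPA9, HSPA4, HSPA1A, HSPA1B, HSPA13, and each neighbour differed from the next beyond counting error. HSP90B1 and HSPA5 moved up, HSPA13 was last in both, and the cytosolic members kept their order among themselves. HSP90AA1 and HSPA5 were close there, at 89.0 and 84.4 FPKM.

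Transcript length went with the ratio over the whole table, so the members' lengths are given beside their ratios. Over 12232 protein-coding genes with a GENCODE length, shorter transcripts had lower ratios, with a median log2 ratio of -1.40 in the shortest of 10 equal bins and 0.29 in the longest. The cytosolic members spanned 2463 to 4825 nt and the reticulum members 2858 to 3986 nt. HSPA8, HSPA1A, HSPA1B and HSP90AB1 (2463 to 2644 nt) were shorter than every reticulum member. By the longest GENCODE transcript, HSP90AA1 (3510 nt) lay within the reticulum range and HSPA4 (4825 nt) above it. The deposited values imply shorter transcripts for HSPA4 and HSPA9 (4727 nt). In the control HSPA9 and HSP90AA1 had 31959 and 31905 counts at 160 and 167 FPKM, and HSPA4 had 27408 at 142. The bin median was -0.08 for HSPA4 and HSPA9 and -0.30 for HSP90AA1. Like-length values of HSPA4 and HSPA9, and the cytosolic median, may therefore lie too low. Set against the median of genes in their own length bin, the cytosolic members had a median of -1.62 and the reticulum members 0.57. HSPA9 was then at -1.29, HSPA8 at -2.26, HSP90AA1 at -0.79 and HSPA5 at 1.05. The distance between the compartments was 2.18 (log2) with TMM and 2.19 on this scale.

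**Figure D4:**
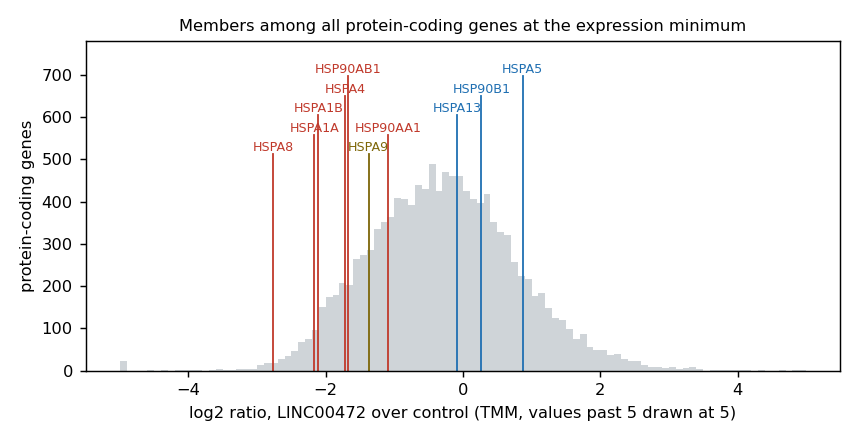
Histogram of the log2 ratio of LINC00472 over control for 12393 protein-coding genes at the expression minimum (TMM), with the members as vertical lines coloured as elsewhere (red cytosolic, gold mitochondrial, blue reticulum). HSPA8 lies in the lower tail, the other cytosolic members between -2.17 and -1.09, and the reticulum members between -0.09 and 0.87, near and above the middle of the distribution.

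Other genes of both families were measured too. HYOU1, the large HSP70 relative of the reticulum and an exchange factor for HSPA5, had 8306 against 15761 counts and a log2 ratio of 0.17 (interval 0.13 to 0.20). TRAP1, the mitochondrial HSP90, had 1361 against 5603 counts and a log2 ratio of -0.95, short of the rule. Of the 9 other HSP70 family genes, 4 were lower and 0 higher (median log2 ratio -0.88), where 26.2% of protein-coding genes were lower. HSPA2, a cytosolic HSP70 best known from spermatogenesis, was lower with 1167 against 10740 counts (log2 ratio -2.11), as was HSPH1, an HSP110 exchange factor, with 3560 against 18290 (-1.27). HSPA1L (46 against 280 counts) and HSPA6 (23 against 160 counts) were lower at low levels, and on deposited FPKM with 0.5 added they fell short of 2-fold. HSPA1L starts next to HSPA1A on the opposite strand, and without known use of strand their reads may not be separable. HSPA4L (-0.86), HSPA14 (-0.88), HSPA12A (0.26) and HSPA12B (0.78, from 52 against 64 counts) did not meet the rule.

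The cytosolic partners of the chaperones are set beside the protein-coding genes, of which 26.2% were lower and 11.5% higher. Of 17 HSP90 co-chaperones, 12 were lower and 1 higher (median log2 ratio -1.39). Against coding genes of like length 7 were lower, 0 were higher and the median was -0.83 (AHSA2 has no length). Of the 7, SUGT1 (-1.32) was set at its longest transcript of 14131 nt. Its 996 counts at 23.6 FPKM imply a length near that of NUDC (1800 nt), with 790 at 18.5. AHSA1, which stimulates the HSP90 ATPase, had 1501 against 16924 counts (log2 ratio -2.41), and CACYBP (-2.21), NUDC (-2.01) and the immunophilin FKBP4 (-1.94) were also lower. The single higher one was AHSA2 (4653 against 3836 counts, log2 ratio 1.37), named after its value was seen. Of 10 cytosolic HSP70 regulators, 7 were lower and 0 higher (median -1.40). Among these were the exchange factors HSPBP1 (-1.98), BAG1 (-1.66) and BAG3 (-1.60) and the HSP70 and HSP90 linker ST13 (-1.95). HSPH1 and HSPA4L are counted here and in the family list.

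Of 10 cytosolic J proteins, which stimulate HSP70, 5 were lower and 0 higher (median log2 ratio -1.07). DNAJA1 had 2240 against 26643 counts (-2.48) and DNAJB1, a classical heat-inducible gene, 845 against 9859 (-2.45). DNAJB6 (-1.73), DNAJA2 (-1.64) and DNAJB2 (-1.20) were lower too. The small heat shock proteins were listed by gene name, and not every gene so named need hold unfolded proteins without ATP, as the class is known to do. Of the 8 listed, 5 reached 1 CPM, and all 5 of those were lower (median -1.83), or 3 of them against genes of like length. HSPB1 had 367 against 5733 counts (-2.87), HSPB8 had 174 against 1321 (-1.83), and CRYAB, of the lens and heart, 24 against 385 (-2.90). HSPB3 (-1.27) and HSPB11 (-1.09) have short transcripts, and their ratios turned to 0.13 and 0.30 against genes of like length.

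Genes that work with the members of the reticulum are set beside the same shares of protein-coding genes, 26.2% lower and 11.5% higher. Of 21 reticulum partners, 5 were lower and 0 higher, a share of lower genes near that background, with a median log2 ratio of -0.53 against -0.31 for all protein-coding genes. SDF2L1, a partner of the J protein DNAJB11, had 30 against 436 counts (-2.76), and MANF (-1.69), the cyclophilin PPIB (-1.50), DNAJB11 itself (-1.32) and the J protein DNAJC3 (-1.18) were lower. The upper end of the list was UGGT1 at 0.68, below the 0.87 of HSPA5. Against protein-coding genes of like length the median of the list was -0.01 and 2 were lower. Under that reference PPIB (-0.10), MANF (-0.29) and DNAJB11 (-0.44) were no longer past 2-fold.

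Of 7 regulators of reticulum stress, 1 was lower and 0 higher (median log2 ratio -0.14). The lower one was XBP1, a transcription factor of the response (1669 against 8328 counts, -1.23), which fell short of 2-fold with total counts (-0.94). The sensor ERN1 (0.59), ATF4 (-0.48) and HERPUD1 (-0.49) did not meet the rule. Of 13 mitochondrial partners, 6 were lower and 0 higher (median -0.95), beside 26.2% and 11.5% of protein-coding genes. Against genes of like length 3 were lower. The 6 lower by TMM included the chaperonin HSPD1 (12303 against 93841 counts, -1.84) and its lid HSPE1 (-2.11). The protease subunit CLPP (-2.32) and the import motor subunit PAM16 (-2.41, from 52 against 593 counts) were also among them. HSPE1 and CLPP fell short of 2-fold against genes of like length (-0.71 and -0.92).

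**Figure D5:**
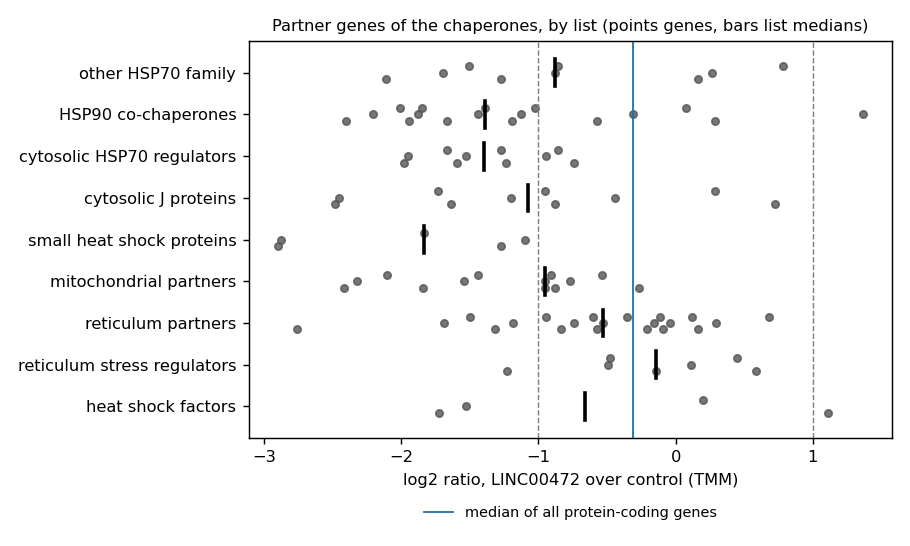
Log2 ratio of LINC00472 over control for each partner gene at the expression minimum (points, spread vertically for view only), with a bar at each list's median, dashed lines at 2-fold and a blue line at the median of all protein-coding genes (-0.31). Medians run from -1.83 for the small heat shock proteins to -0.14 for the reticulum stress regulators. Some genes stand in more than 1 list.

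The heat shock factors HSF1, HSF2 and HSF4 were listed with HSBP1, which binds HSF1 and is not itself a heat shock factor. HSF1, the main regulator of the cytosolic response, was lower (655 against 4024 counts, log2 ratio -1.53), and so was HSBP1 (-1.73). HSF2 had a log2 ratio of 0.20. HSF4 was higher (904 against 891 counts, log2 ratio 1.11). Against genes of like length HSF1 was at -0.93.

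Genes outside the 10 that hold the same promoter motifs were also described. Of 51 other genes at the minimum with the heat shock element, 12 were lower (23.5%) and 11 higher (21.6%), with a median log2 ratio of 0.13. Over all genes 23.8% were lower and 16.3% higher, and over protein-coding genes 26.2% and 11.5%. The share of lower genes was near both backgrounds, and that of higher genes lay above both. Exact letters define this set, and the heat-inducible DNAJB1 is not in it. These shares therefore cannot show whether HSF1 has a part in the ratios, which was not tested. Chaperone genes with the element stood at different levels: DNAJA1 (-2.48), HSPD1 (-1.84), DNAJB6 (-1.73) and HSPA6 (-1.70) were lower, while the collagen chaperone SERPINH1 (-0.68) and the HSP90 co-chaperone CHORDC1 (0.08) did not meet the rule. Of 14 other genes with the reticulum stress element, 3 (21.4%) were lower (SERP1, TMEM120A and XBP1) and 1 (7.14%) higher (ERO1B). Both shares were near or below the backgrounds, and the median log2 ratio was -0.80. Of the 14, 12 lay below 0, beside 56.7% of all genes and 61.6% of protein-coding genes. Genes with the element included the lectin chaperones CANX (-0.94) and CALR (-0.84), the disulfide isomerase PDIA6 (-0.61) and XBP1 (-1.23), all below HSPA5 and HSP90B1. ERO1B (1.05) lay above both, and ZNF17 (0.74) lay above HSP90B1.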

How the data were processed

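The authors deposited raw read counts per gene and FPKM values in a table of both libraries and a table per library, with equal counts for all 27685 genes. StringTie 1.3.4b, HISAT2 2.1.0, Trimmomatic, bcl2fastq 2.20.0 and the build hg19 appear, without roles, in the submitters' processing notes. The counting step and its use of strand are not given in these sources, so reads of overlapping genes cannot be separated.

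The deposited counts were scaled by TMM (edgeR 4.0.16, R 4.3.3; factors 1.11 for LINC00472 and 0.905 for control). Log2 ratios used a prior count of 0.5. Intervals are exact conditional 95% intervals of 2 counts; those of quotients are log-normal from 4 counts. With 1 library per group no test was made. Code was tested on simulated counts. Members, lists and motifs were chosen with earlier results of these data known. Named genes were all members, other family genes, and from each list up to 4 with the largest absolute ratio at 5 CPM or more. HSF1 and HSF2 were added. Others (UGGT1, AHSA2, SUGT1, DNAJB2, DNAJC3, CRYAB, pseudogenes, small nucleolar RNAs and motif genes) were named after their values were seen. Lengths came from GENCODE 29, by RefSeq accession (longest transcript), for 98.7% of protein-coding genes. For some genes the longest transcript is longer than the deposited counts and FPKM imply. Alternatives were FPKM plus 0.5, size factors of DESeq2 1.42.0, scaling by upper quartiles or total counts, a prior count of 5, single-library tables, other minimums and other centrings. Calls on FPKM used the fold alone, without an interval. Python 3.11.15 with pandas 2.3.3, scipy 1.17.1, Biopython 1.88 and matplotlib 3.10.9 was used.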

Additional observations from a re-analysis of the deposited data

How the results depend on the processing

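Members called lower numbered 5 to 7 over all settings. HSPA8, HSPA1A, HSPA1B, HSPA4 and HSP90AB1 were lower in all 12 settings, main one included, HSPA9 in 11 and HSP90AA1 in 6, and HSPA5 was higher in 6. Members called higher numbered 1 (HSPA5) in place of 0 when scaled by upper quartiles or total counts, with FPKM plus 0.5 and all 3 other references. The cytosolic and reticulum medians were -1.62 and 0.56 when scaled by total counts, -1.52 and 0.66 by upper quartiles, -1.71 and 0.45 with FPKM, and -1.72 and 0.46 centred on all genes. Among alternatives added after seeing the data, they were -1.62 and 0.57 centred on coding genes of like length and -1.70 and 0.48 with protein-coding genes alone. The distance between compartments was 2.17 to 2.19 in all settings run. Most settings could not change it, since scaling factors and centring on all genes shift every member alike. The single-library tables hold equal counts, and the other minimums drop no member. Only FPKM, the prior count and the length bins could have moved the distance. HSPA9 was at -0.98 with upper quartile factors. HSPA13 turned to 0.20, 0.30, 0.10, 0.10, 0.10 and 0.12 under these alternatives, in the order just given. Against like length, ATF4 (0.12), HSPB3 (0.13) and HSPB11 (0.30) turned too. All genes called lower numbered 1993 with upper quartile factors and 1476 against like length, and those higher 3531 with upper quartile factors, 3657 with no minimum and 1347 at 5 CPM. Among partner lists, scaling by total counts or by upper quartiles each gave 1 higher gene in the other HSP70 genes and in the J proteins, 0 lower stress regulators and 3 lower small heat shock proteins. Upper quartile factors gave 3 lower and 1 higher reticulum partners. The other HSP70 genes had 2 lower with FPKM and at 5 CPM. Against like length, 7 co-chaperones, 2 reticulum partners, 3 mitochondrial partners, 3 small heat shock proteins and 0 stress regulators were lower. Of the genes listed with the heat shock factors only HSBP1 was lower there (-2.02). That value rests on a longest transcript of 8784 nt. The deposited values imply a shorter one, with 463 counts at 9.88 FPKM beside 655 at 12.8 for HSF1 (2142 nt). It is therefore not a firm comparison with genes of like length, and the same holds for SUGT1 among the co-chaperones. On that reference 1 other HSP70 gene, 1 J protein and 1 stress regulator were higher, and 0 co-chaperones were higher. Fewer genes have a length, so AHSA2 was not counted there. No paired analysis was possible because each group is 1 library. Counting error limits genes of few counts such as HSPA6, HSPA12B and PAM16, and the spread between cultures was not measured.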

Other observations

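Of 3 pseudogenes looked at, 2 were higher, as were 53.4% of the 1619 genes at 1 CPM without a protein-coding transcript, so their direction is that of most of their class. HSP90B2P had 399 counts with the LINC00472 plasmid and 162 with the empty vector (log2 ratio 2.38, counting interval 2.12 to 2.66), whereas HSP90B1 stood at 0.27. HSP90AB4P had 308 against 111 counts (log2 ratio 2.55, interval 2.24 to 2.89), whereas HSP90AB1 was lower at -1.67. Their GENCODE transcripts matched those of HSP90B1 and HSP90AB1 at 95.2% of 2372 and 90.0% of 1573 aligned bases, so some reads may be shared, which was not tested. HSPA7, a near copy of HSPA6 (98.6% of 1926 aligned bases), had 2 against 22 counts and did not reach 1 CPM.

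SNORD63, a small nucleolar RNA encoded in an intron of HSPA9, had 19 against 21 counts, and SNORD63B, a second one of that name, had 31 against 36. Their log2 ratios were 0.92 (interval -0.03 to 1.91) and 0.86 (0.13 to 1.61), where HSPA9 stood at -1.37. The counts are few, and SNORD63 did not reach 1 CPM.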
